A study of Mus musculus with 4 samples.

Results

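Tumours of WHV/c-myc transgenic mice were compared with age-matched wild-type liver, both from mice of 11 months. WHV/c-myc mice carry a c-myc transgene joined to woodchuck hepatitis virus sequences and develop hepatocellular carcinoma. Both arrays of the comparison were taken whole, so that its members are 2 of the 4 arrays of the study, 1 of tumour tissue and 1 of normal liver. The other 2 arrays were of transgenic and wild-type liver at 5 months, and they are used here as a backdrop. All 4 groups were C57/BL6 mice under a 12 h light and dark cycle with free food, and each array stood for 5 mice. The series text describes dysplastic, tumour-free transgenic liver at 5 months and mostly well-differentiated tumours with a trabecular growth pattern at 11 months. At 11 months the transgenic sample was the tumour itself, so genotype and tumour tissue cannot be told apart. Mixed samples and a mean over 5 samplings are both mentioned in the labels, and whether RNA or signals were averaged is not settled. The sex of the mice, the time of day of collection and the cells that express the transgene are not stated in the labels. With 1 array a group there was no replicate, so the differences below carry no error estimate and no test, and they describe these arrays.

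MYC is a transcription factor that pairs with MAX and binds near the start of genes for ribosome production, nucleotide synthesis and entry into the cell cycle. In adult liver most hepatocytes are outside the cell cycle and divide their work by place: cells around the portal vein make glucose and urea, and cells around the central vein make glutamine and oxidise drugs. Hepatocellular carcinoma is a tumour of hepatocyte origin, in which genes of the fetal liver can be expressed again while genes of the mature hepatocyte can be lost.

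RNA was hybridised to Affymetrix whole-genome mouse arrays, on which a probe set reads 1 transcript region. The values are intensities in arbitrary units, here brought to a common distribution over the 4 arrays. A ratio is log2 of tumour over wild-type liver at 11 months unless another is named, values under the floor of 28.3 were raised to it, and a gene was called at a 2-fold difference. A gene below the floor on 1 of the 2 arrays has a bound, written "at least", and where both arrays are below it no ratio is given. Of 18194 genes, 12920 had a ratio, 1072 were 2-fold higher in the tumour (5.89% of all genes on the array) and 841 were 2-fold lower (4.62%). The difference was at least 4-fold for 177 higher and 110 lower genes and at least 8-fold for 41 and 28. Bounds made up 298 of the higher and 145 of the lower calls. Between 11589 and 11773 genes lay above the floor on each array. The tumour array was the brightest as deposited, with a median of 35.8 against 24.5 to 27.6 on the others, and without normalization the median ratio of genes with a ratio was 0.51 in place of -0.03. Deposited values gave 3062 higher and 244 lower genes, so that the called genes were 92.6% higher ones in place of 56.0%. Of 888 called genes with another measured probe set, 685 (77.1%) had the same sign in every such probe set and 9 had one 2-fold in the opposite direction.

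**Figure D1:**
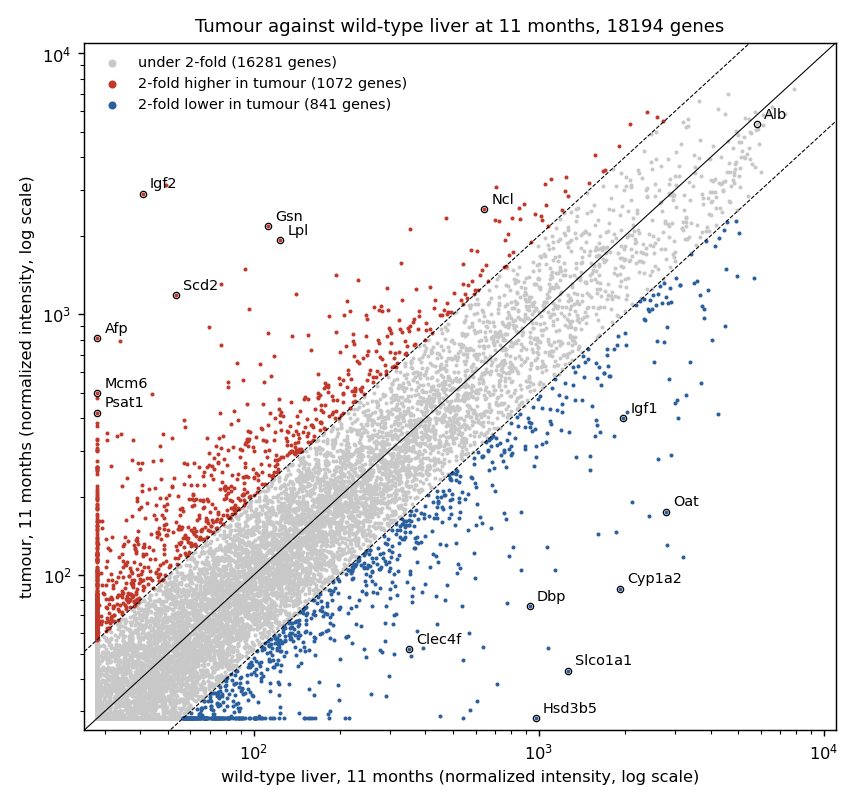
Normalized intensity of 18194 genes in wild-type liver (x axis) and tumour (y axis) at 11 months, both on log scales, with values below the floor drawn at the floor. The solid line marks equal intensity and the dashed lines 2-fold; Igf2 at 40.7 and 2903 is the farthest gene above the line with a value above the floor on both arrays, and Slco1a1 at 1261 and 43.1 the farthest below.

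The labels could not be checked against the transgene. Myc itself was read by 1 probe set, at 42.5 and 42.1 on the wild-type arrays at 5 and 11 months, 16.1 on the transgenic array at 5 months and 27.2 in the tumour. Both transgenic values were thus below the floor and below the wild-type ones. Nothing read here says whether this probe set detects the transgene, so it checks nothing. The 13 genes of MYC and its partners had 0 calls and a median ratio of 0.06; Mycn, a paralogue of Myc, was at a bound of 0.38, Mxd4, a repressor that competes for MAX, at 0.67 and Max at a bound of 0.14. The labelled tissue was checked by the hepatocyte gene Alb, which encodes albumin and was at 5805 in wild-type liver and 5352 in the tumour, a ratio of -0.12. Of 11 hepatocyte markers 10 lay below 0 (median -0.87), 2 were 2-fold lower, Pck1 and Tat, and 0 higher. The brightest of them, Alb, Apoa1, Fgb, Ttr and Cps1, lay between -0.19 and 0.04, and the others between -2.77 and -0.87. The bright ones stood toward the top of the scale, where Apoa1 was at 7862 in wild-type liver and 7296 in the tumour. Cyp2e1, also bright at 5720 in wild-type liver, was at -0.64. Whether differences were compressed toward the top of the scale was not tested.

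The largest ratios included those of Igf2 and Afp, genes of the fetal liver. Igf2, a growth factor of the fetal liver, was at 31.9 and 40.7 on the wild-type arrays, 73.7 in transgenic liver at 5 months and 2903 in the tumour. The tumour was 71.3-fold above wild-type liver, and the transgenic array at 5 months stood between the wild-type arrays and the tumour. A second Igf2 probe set, at 7.01 and 77.2, gave a bound of 1.45 in the same direction. Afp, alpha-fetoprotein of fetal serum, was below the floor on 3 arrays and at 810.0 in the tumour, which made it at least 28.7-fold higher, with 3 other probe sets at bounds of 1.67 to 3.40. Meg3, a noncoding RNA of an imprinted region, was at 1.42 by its leading probe set, but others lay between -0.39 and 1.20. Of 36 genes of fetal liver and of liver tumours, 8 were 2-fold higher and 0 lower, with a median of 0.08. Ly6d, a surface protein, was at least 9.65-fold higher, the transcription factor gene Sox4 was at 2.85 (0.41 with its probe sets averaged), the trefoil peptide gene Tff3 at 2.79 and Robo1, an axon guidance receptor, at 1.47. Gpc3, a surface proteoglycan used as a marker of human liver cancer, was at 0.75 and Dlk1, a fetal hepatoblast protein, at a bound of 0.31, while Lin28a, Lin28b, Sall4, Prom1, Peg10 and Igf2bp1 were below the floor on both arrays. Most fetal genes on the list thus did not reach 2-fold, and the high end was made by a few.

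Scd2, a stearoyl-CoA desaturase low in adult hepatocytes, was at 50.1 and 53.2 in wild-type liver, 70 in transgenic liver at 5 months and 1185 in the tumour, 22.3-fold higher. Lpl, the lipoprotein lipase, was at 253, 124, 256 and 1927 in the same order, and Fabp4, a fatty acid binding protein of adipocytes and macrophages, at 123, 93, 142 and 1487. The tumour was the highest array for all 3. Over whole lists, fatty acid uptake, binding and lipid droplet genes had 4 of 28 higher and 4 lower (median -0.01, 0.57 as deposited), and fatty acid synthesis genes 3 of 19 higher and 1 lower (median 0.00). Adipoq and Lep, which define adipocytes, were below the floor on both arrays, and 2 of 6 adipocyte markers, Fabp4 and Cidec, were 2-fold higher. Gsn, which encodes the actin-severing protein gelsolin, was 19.5-fold higher, with 4 other probe sets also 2-fold higher. Aldh1b1, a mitochondrial aldehyde dehydrogenase, was 17-fold higher than at 11 months in wild-type liver (77 against 1311), where it was itself lower than at 5 months (169.7). Fkbp11, a prolyl isomerase, was 11.3-fold higher (43.9 against 496, and 160.3 in wild-type liver at 5 months). Further genes among the 25 highest included the protease inhibitor Serpinb1a at 3.69, the prostaglandin D synthase Ptgds at 3.37, the chromatin protein Hmgb2 at 3.34, the kinesin Kif22 at 3.31, the mitotic kinase Pbk at 3.05, the sphingomyelinase relative Smpdl3b at 3.43, Lypd8 at 3.13, the ATP synthase inhibitor Atpif1 at 3.10 and D17H6S56E-5 at 4.54. Without probe sets that match several transcripts Fabp4 was at 0.57, Hmgb2 at 0.10, Kif22 at 0.38, Atpif1 at 0.40 and Fkbp11 at 0, all under 2-fold; a value of 0 stands for both arrays below the floor. Mtm1, a lipid phosphatase, was 63.8-fold higher by 1 probe set, but another of its probe sets did not share its sign. Of genes with a bound, Fhit was at least 17-fold higher, Tmed6 at least 13.5-fold, Emp2 at least 13.2-fold and Amn at least 11.7-fold.

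Genes that load and fire origins of DNA replication were higher in the tumour as a group. The MCM proteins form the ring-shaped helicase, ORC marks the origins, and CDT1 and CDC6 load the ring. Of 23 such genes on the array, 12 were 2-fold higher and 0 lower, with a median of 1.07 against 0 over all genes. Mcm6 was at 7.57 and 8.55 on the wild-type arrays, 40 in transgenic liver at 5 months and 499 in the tumour, at least 17.6-fold higher. By this probe set it was below the floor in both wild-type livers and above it in both transgenic samples. A second Mcm6 probe set was at 30.2, 15.2, 51.0 and 361.8 in the same order, so above the floor in the younger wild-type liver too. Mcm7 was at 102, 115, 136 and 578 in the same order, 5.02-fold higher, and Mcm5 at 4.7, 8, 21.9 and 178, at least 6.31-fold higher. The subunits Mcm4, Mcm2 and Mcm3 were at 3.53, a bound of 2.54 and 1.71, so that all 6 genes of the MCM ring were 2-fold higher; without probe sets that match several transcripts Mcm5 and Mcm3 were at 0.97 and 0.92. Cdt1 was at 2.46, and Dbf4, which activates the kinase that fires origins, at a bound of 2.80. The remaining members were uneven: Orc3 and Orc5 were at 1.20 and 1.07, Orc2 at 0.17, Cdc6 at a bound of 0.56, and Mcm10, Orc1 and Gins3 lay below 0, at -0.82, -0.74 and a bound of -0.70.

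The 250 bases before the start of 3 of these genes are shown because they hold the letters of the motif of E2F factors, which switch on replication genes. The letters searched were TTTCCCGC, TTTGGCGC and TTTCGCGC on both strands, and matches are in capitals; overlapping matches run together. Sequences are from RefSeq, build GRCm38.p6: Mcm6 at chr1:128359706-128359955, Mcm5 at chr8:75109259-75109508 and Mcm7 at chr5:138171884-138172133, each written along the gene's own strand.
Mcm6: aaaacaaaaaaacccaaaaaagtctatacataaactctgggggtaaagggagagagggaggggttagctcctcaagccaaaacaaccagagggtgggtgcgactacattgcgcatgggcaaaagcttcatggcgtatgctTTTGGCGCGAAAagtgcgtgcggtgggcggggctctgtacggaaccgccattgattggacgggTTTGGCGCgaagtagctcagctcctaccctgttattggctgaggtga
Mcm5: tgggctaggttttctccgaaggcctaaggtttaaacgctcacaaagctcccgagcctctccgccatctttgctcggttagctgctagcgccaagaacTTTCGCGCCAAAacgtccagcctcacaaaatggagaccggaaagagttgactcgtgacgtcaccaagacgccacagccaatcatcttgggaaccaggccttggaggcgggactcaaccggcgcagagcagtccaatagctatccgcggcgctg
Mcm7: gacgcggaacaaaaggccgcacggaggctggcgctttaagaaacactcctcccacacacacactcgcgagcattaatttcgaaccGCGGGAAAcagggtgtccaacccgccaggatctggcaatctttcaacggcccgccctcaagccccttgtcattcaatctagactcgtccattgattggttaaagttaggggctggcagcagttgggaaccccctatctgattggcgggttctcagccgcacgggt
Mcm6 held 3 matches, of which 2 overlapped, Mcm5 2 overlapping ones and Mcm7 1. Of 18 listed origin genes with such a window, 7 held a match (38.9%), against 353 of 14453 genes of the array (2.44%). Among the 7, Mcm6, Mcm5, Mcm7 and Orc3 were 2-fold higher and Cdc6, Orc1 and Gins3 were not, while 6 of 11 genes without a match were 2-fold higher, Mcm2, Mcm3, Cdt1, Dbf4, Cdc45 and Orc5. The same letters stood before 47 of 855 genes that were 2-fold higher (5.50%) and 12 of 663 that were 2-fold lower (1.81%). These are matches of letters in a window, 1 start a gene, and not sites shown to be bound; 10 motifs were counted in all.

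Enzymes of the replication fork were likewise higher: 11 of 23 were 2-fold higher and 0 lower, with a median of 0.95. Top2a, the topoisomerase that untangles chromosomes, was below the floor on 3 arrays and at 251 in the tumour, at least 8.89-fold higher, although its other measured probe set had the opposite sign. Pcna, the sliding clamp, was at 294 and 415 in wild-type liver, 401 at 5 months in transgenic liver and 1267 in the tumour. Rfc4, of the clamp loader, was at 2.35, the single-strand binding protein gene Rpa1 at 2.11, the primase gene Prim1 at 2.08, the polymerase delta subunit Pold2 at 1.65 and the flap nuclease Fen1 at 1.48, whereas Lig1, the ligase of the lagging strand, was at 0.28. Of 18 DNA repair genes 8 were 2-fold higher and 0 lower (median 0.71), with the checkpoint kinase Chek1 at a bound of 2.42, the end-binding Ku genes Xrcc5 and Xrcc6 at 1.93 and 1.33 and Parp1 at 1.19; Brca1 and Brca2 were at 0.74 and 0.67.

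Mitotic genes were 2-fold higher in large number. Of 30 genes of the spindle, kinetochore and cytokinesis, 23 were 2-fold higher and 1 lower, with a median of 1.93. Of the 30 genes 9 were above the floor in wild-type liver and 29 in the tumour. Most ratios are therefore bounds, and most genes could not have had a ratio below 0. Ect2, which directs the cleavage furrow, was at 34.9 and 20.9 in wild-type liver, 32.2 in transgenic liver at 5 months and 334 in the tumour, and Ube2c, which works with the ubiquitin ligase that ends mitosis, at 17.9, 19.4, 30.8 and 317. Both thus stood near the floor on 3 arrays. Mad2l1 and Bub1, of the spindle checkpoint, had bounds of 3.17 and 1.76, Birc5, Aurkb, Incenp and Cdca8, the 4 members of the chromosomal passenger complex, bounds of 3.11, 2.08, 2.46 and 2.91, and Cdc20 was at 2.69. For Incenp another probe set lay below 0, at -0.89, and Cdca8 was at 0.10 without probe sets that match several transcripts. Pttg1, the securin that holds sister chromatids together, went the other way, at 1177 in wild-type liver and 489.9 in the tumour (-1.27), with both other measured probe sets of the same sign. Tpx2 was at 0.01, and Cenpf at -0.43 by a probe set that another one opposed at 2-fold. None of 26 windows of these genes held the E2F letters, while 18 held CCAAT (69.2%, against 35.7% of all genes). CCAAT was not particular to this list. Its share was 64.7% for clock genes, 55.6% for origin genes, 55% for fork enzymes, 43.5% for cyclins and kinases and 22.2% for snoRNP genes. TTTGAA or TTCGAA stood in 7 of the 26 mitotic windows (26.9%, against 13.4% of all genes). Leaving out probe sets that match several transcripts lowered the count to 12 genes, and the floor at the 75th percentile to 13.

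Among 30 cyclins, cyclin-dependent kinases, E2F factors and inhibitors, 12 were 2-fold higher and 1 lower. Cdk1, the mitotic kinase, was at 15.2 and 37.5 in wild-type liver, 22.3 in transgenic liver at 5 months and 276 in the tumour, 7.35-fold higher. Its cyclins Ccnb2 and Ccna2 were at a bound of 3.21 and at 2.38. Ccnd1, the G1 cyclin D1, was at 82.2 and 95.2 in wild-type liver, 494 in transgenic liver at 5 months and 312 in the tumour, so that the tumour-free transgenic liver had the highest value. Its partner Cdk4 was at 1.89, while Ccnd2 and Ccnd3 were at -0.13 and -0.45. Inhibitors were high as well: Cdkn1a, the p53 target p21, was at least 9.21-fold higher (9.14 against 260.2, and 60.1 in wild-type liver at 5 months), Cdkn2c was at 1.14 and Cdkn1c and Cdkn2d had bounds of 1.02 and 1.14. Cdkn2a was below the floor on both arrays. Rbl2, a relative of the retinoblastoma protein of resting cells, was at -1.18 and its relative Rbl1 of cycling cells at a bound of 2.12.

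Of 21 p53 target genes, 6 were 2-fold higher and 1 lower (median 0.12). Besides Cdkn1a these were Ccng1 at 1.37, the exonuclease gene Aen at 1.34, the death gene Bbc3 at 1.26, Zmat3 at 1.03 and Btg2 at 1.01, while Mdm2, the ubiquitin ligase of p53, was at -0.11 and the kinase gene Plk3 at a bound of -1.95. Among 19 apoptosis regulators Bad, a pro-death BCL2 relative, was at 37.5 in wild-type liver and 168 in the tumour (2.16), but wild-type liver at 5 months was at 139, so that the tumour differed little from that array. Bmf and Xiap were at -1.12 and -1.07.

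Genes for making ribosomes were higher with few exceptions. Small nucleolar RNPs of the C/D and H/ACA box classes modify ribosomal RNA in the nucleolus, and other factors cut and fold it. Of 31 such genes 17 were 2-fold higher and 0 lower, all 30 with a ratio were above 0, and the median was 1.21. Ncl, nucleolin, was at 506 and 643 in wild-type liver, 664 in transgenic liver at 5 months and 2528 in the tumour, 3.93-fold higher, and 3 other probe sets were also 2-fold higher. Nop56, of the C/D particle, was at 111, 91.4, 143 and 558, and its methyltransferase Fbl, fibrillarin, at 401, 402, 476 and 929.8. In all 3 genes the tumour was the highest array and the other 3 lay close together. Of the H/ACA particle Nhp2 was at 2.27, Gar1 at 1.79, the pseudouridine synthase Dkc1 at 1.28 and Nop10 at 0.93. Nolc1, a chaperone of these particles, was at 1.84 and Npm1, nucleophosmin, at 1.59. MYC binds the E-box CACGTG, and 1 of 27 windows of these genes held it (3.70%), against 1093 of 14453 (7.56%) over the array. No match says only that these letters were not in the 250 bases before the start used.

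**Figure D2:**
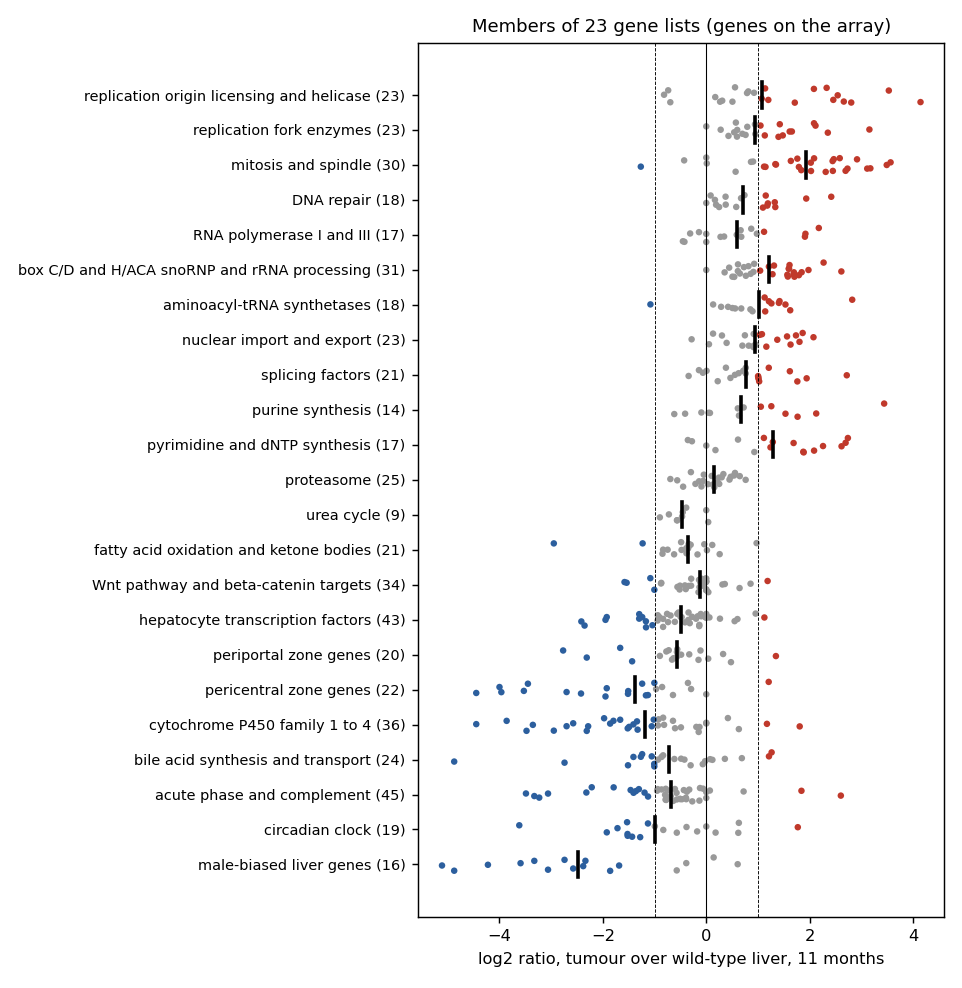
Log2 ratio of tumour over wild-type liver at 11 months (x axis) for each gene (points) of 23 lists, with the number of genes on the array in brackets, black bars at the median, and dashed lines at 2-fold. Red and blue points are 2-fold higher and lower; genes below the floor on both arrays are drawn at 0. Mitosis has the highest median, 1.93, and male-biased liver genes the lowest, -2.48. Of the 30 mitosis genes 9 were above the floor in wild-type liver, so the rest could not lie below 0.

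RNA polymerase I and III genes were less uniform, 4 of 17 being 2-fold higher (median 0.59). The polymerase I subunits Polr1a, Polr1b and Polr1e were at 1.12, 1.91 and a bound of 1.92, Taf1d of its promoter factor at 2.17, and Ubtf, which opens ribosomal gene chromatin, at -0.31. Of 20 translation factors 7 were 2-fold higher, among them Eif1a at 1.36, the cap-binding Eif4e at 1.05 and its repressor Eif4ebp1 at 1.10. Of 18 aminoacyl-tRNA synthetases 9 were 2-fold higher and 1 lower, with Vars, the valine enzyme, at a bound of 2.82, Wars, for tryptophan, at 1.62 and Aars, for alanine, at -1.08. Import and export receptors and pore proteins had 10 of 23 higher and 0 lower (median 0.95), led by the pore genes Nup210, Nup62 and Nup205 at 2.07, 1.86 and 1.73, although Nup62 was at 0.11 with the 5-month wild-type control. Of 21 splicing factors 9 were higher and 0 lower, with Snrpf, Snrpg and Snrpa1 of the spliceosome core at 2.72, 1.94 and 1.76. Mitochondrial ribosome and import genes had 5 of 29 higher, 28 of them above 0 (median 0.70), with Tomm22 at 1.74. The CCT chaperonin genes Cct7, Cct5, Cct3, Cct4 and Cct2 were at 1.44, 1.32, 1.23, 1.09 and 1.01. Of 25 proteasome genes 0 were called, beside 5.89% higher and 4.62% lower of all genes on the array. Their median was 0.15, from Psmb5 at -0.69 to Psma7 at 0.76.

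Of 17 genes of pyrimidine and deoxynucleotide synthesis 11 were 2-fold higher and 0 lower, with a median of 1.29. Ctps, which makes CTP, was at 65.2 and 46.7 in wild-type liver, 69.6 in transgenic liver at 5 months and 312 in the tumour, 6.67-fold higher. Rrm2, of ribonucleotide reductase, was at 85.6, 81.3, 83.3 and 526. The tumour was alone in being high for both. Dtymk, which phosphorylates dTMP, was at 2.61, Uck2, a uridine kinase, at 2.26, Cad, the first enzyme of the pathway, at a bound of 2.08, Umps at 1.88 and Dhodh at 1.11, while the p53-induced Rrm2b was at -0.36 and Tk1 at 0.18. Of 14 purine genes 6 were 2-fold higher and 0 lower: Adssl1 at a bound of 3.44, Adsl at 2.12, Gart at 1.76, Pfas at 1.53, Atic at 1.26 and Impdh1 at 1.05, while Ppat, which starts the pathway, was at 0.72 and Paics at 0.05.

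Of 16 serine, glycine and one-carbon genes 6 were 2-fold higher and 0 lower (median 0.33). Psat1 and Psph, of serine synthesis, were at a bound of 3.89 and at 2.17, and Phgdh, its entry enzyme, at 1.46. Psat1 was below the floor on the other 3 arrays and at 419 in the tumour. The mitochondrial folate enzymes Mthfd2 and Mthfd1l were at a bound of 1.70 and at 1.90, and Gldc, of glycine cleavage, at 2.23. Shmt1 and Shmt2 were at 0.21 and -0.06, and the hepatocyte enzymes Gnmt, Aldh1l1 and Dmgdh at -0.47, -0.58 and -0.79. Of the glutamine, asparagine and proline genes, Asns, the asparagine synthetase, was at 96.2 in wild-type liver and 1048 in the tumour (10.9-fold higher) and Aldh18a1, of proline synthesis, at 2.32, while Oat, the ornithine aminotransferase, was 16-fold lower and Glul, the glutamine synthetase, 2.85-fold lower. Of 25 genes of the integrated stress response, in which Asns takes part, and of ER chaperones 4 were higher and 1 lower; Atf4 was at 0.36, Ddit3 at 0.01, Trib3 at 0.89, Atf3 at 1.42 and Chac1 at -0.26. Srm, which makes spermidine, was at 2.27 and Odc1, ornithine decarboxylase and a known MYC target, at 1.01. No urea cycle gene of 9 was called (median -0.47), from Ass1 at -0.90 to Cps1 at 0.04.

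In some pairs of genes an isoform of adult liver and one of fetal or other tissue serve the same step. Of 21 listed pairs 11 had both genes on the array and 10 a ratio for both, and the rest were not analysed here. In these 10 pairs the other form had the higher ratio, by at least 1 in 8 of them. At 5 months 1 of 11 reached that difference. Pklr, the liver pyruvate kinase, was at 231 in wild-type liver and 130.4 in the tumour, and Pkm, the form of muscle and growing cells, at 29.3 and 161. Scd1 was at -0.92 beside Scd2 at 4.48, the liver glycogen phosphorylase Pygl at -0.09 beside the brain form Pygb at 1.95, Fabp1 at -0.31 beside Fabp4 and Fabp5 at 16-fold and 5.87-fold higher, Igf1 at -2.31 beside Igf2, and the glucose transporter gene Slc2a2 at -0.67 beside Slc2a1 at 0.78. Of the adult forms, 1 of 10, Igf1, was itself 2-fold lower, whereas 8 of 11 other forms were 2-fold higher, so the differences within pairs lay mostly in the other form. Some other forms stood near or under the floor in wild-type liver and could hardly fall, as Pkm at 29.3, Igf2 at 40.7 and Afp at 0.62. Slc2a1 at 101 and Fabp5 at 231 had room to fall. The adult forms Alb and Fabp1, at 5805 and 7296, were near the top of the scale, and whether differences were compressed there was not tested. Fabp1 entered more than 1 pair, so the pairs were not independent. The narrowest pairs were Pfkl and Pfkp at 0.68 and a bound of 1.09, and Bcat2 and Bcat1 at -0.45 and -0.01. Arg1 was at -0.57, and Arg2 was below the floor on both arrays. Fabp4 and Fabp5 came under 2-fold by an alternative each, at 0.57 without probe sets that match several transcripts and 0.92 with the 5-month wild-type control.

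Genes of energy metabolism were 2-fold apart in both directions. Of 27 genes of glucose uptake and glycolysis 5 were higher and 1 lower (median 0.07), with Hk2 at 1.26, the lactate exporter Slc16a1 at 1.31 and Ldhb at -1.08. Gluconeogenesis and glycogen genes had 3 higher and 3 lower of 13, with Pck1, its rate-limiting enzyme, at -2.77 and the liver glycogen synthase Gys2 at -1.69. Mdh2, Idh2 and Idh3a of the TCA cycle were at 1.58, 1.49 and 1.06, and 0 of 21 such genes were 2-fold lower. The median of 21 fatty acid oxidation genes was -0.36, and 0.06 as deposited, with Cyp4a14 at -2.95 and Ehhadh at -1.23. Fatty acid synthase, Fasn, was at 1.37 and Elovl3, an elongase, at -3.59. Of 20 cholesterol synthesis genes 4 were higher and 1 lower (median 0.03), with Sqle, Dhcr7, Fdps and Idi1 above 1 and Tm7sf2 at -1.40. With the 5-month wild-type array as control Sqle, Dhcr7, Fdps and Idi1 were at 0.45, 0.33, 0.12 and -0.27 and the median of the list was -0.38, so these calls rested on the wild-type array at 11 months.

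Genes of the mature hepatocyte led the lower end. Of 36 cytochrome P450 genes of families 1 to 4, 20 were 2-fold lower in the tumour and 2 higher (median -1.19). Cyp1a2 was at 3206 and 1930.2 in wild-type liver, 2892 in transgenic liver at 5 months and 88.6 in the tumour, 21.8-fold lower. The tumour alone was low. Cyp2a12, Cyp2c54, Cyp2c50, Cyp2c37 and Cyp4a14 were at -3.86, -3.47, -3.35, -2.70 and -2.95. Cyp2e1, among the most abundant, was at 5720.0 and 3662 (-0.64) and Cyp3a11 at -0.13, so that the family was not lowered evenly. Cyp2b10, the usual target of the xenobiotic receptor CAR, was higher, at 1.81, although Nr1i3, which encodes CAR, was at -1.92, and Cyp2c55 was at 1.17. Cyp2b10 was at 56.5 in wild-type liver at 5 months, 113 in transgenic liver at that age, 29.2 in wild-type liver at 11 months and 102 in the tumour, so it differed within wild-type liver too. Probes for close members of these families can cross-hybridise, and the split between them is uncertain. As this was bulk tissue, fewer cells of a type and less RNA per cell cannot be told apart, here and below.

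Of 37 conjugating enzymes and drug transporters 8 were 2-fold lower and 3 higher (median -0.42, 0.03 as deposited). The UDP-glycosyltransferases Ugt3a2, Ugt3a1 and Ugt2b1 were at -3.68, -2.74 and -2.36. The drug efflux pump gene Abcb1a was higher, at 40.3 in wild-type liver and 183 in the tumour. Sult2a8, a bile acid sulfotransferase, was at 2991 and 3206 in wild-type liver, 2619.9 at 5 months in transgenic liver and 117 in the tumour, 27.4-fold lower. Further genes among the 25 lowest were the carboxylesterase Ces1f at -4.43, the aminopeptidase Enpep at -4.35, Rdh16f2 at -4.20, the organic anion transporter relative Slc22a30 at -3.30, Plekhb1 at -3.24 and Rarres1 at -3.07. Of genes below the floor in the tumour, Mfsd4b1 was at least 19.1-fold lower, Gas1 at least 7.63-fold, Lin7a at least 7.4-fold, Adcy5 at least 5.81-fold, Enho at least 5.68-fold, Them7 at least 5.59-fold and Klhl22 at least 5.47-fold. Cidea, a lipid droplet protein of fat and steatotic liver, was at least 6.48-fold lower, but it stood at 183 in wild-type liver at 11 months and at 2.99 at 5 months, so this ratio rested on the older wild-type array.

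Bile acid genes had 9 of 24 lower and 2 higher (median -0.73). Slco1a1, which takes up bile acids and other anions, was at 1686 and 1261 in wild-type liver, 950 in transgenic liver at 5 months and 43.1 in the tumour, 29.3-fold lower and the lowest gene above the floor on both arrays. Cyp7b1, Cyp7a1 and Cyp27a1, of the routes of bile acid synthesis, were at -2.74, -1.51 and -1.24, and the uptake carriers Slco1b2 and Slc10a1 at -1.41 and -1.26. The export pump Abcb11 was at 0.07, and Cyp39a1 and Akr1d1 were higher, at 1.26 and 1.21.

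Of 22 genes of the pericentral zone 15 were 2-fold lower (median -1.37), and of 20 of the periportal zone 4 (median -0.57). The difference between these lists was not tested. Oat was at 2782 and 2787 in wild-type liver, 1926 in transgenic liver at 5 months and 175 in the tumour. Glul, whose expression is confined to hepatocytes next to the central vein, was at 2163, 1696, 2185 and 596. The glutamate transporter Slc1a2 was at -3.96, Lect2 at -3.53, Gulo, of vitamin C synthesis, at -3.45, Lhpp at -2.42 and the repressor gene Tbx3 at -1.17, while Gstm3 was higher, at 1.21. Wnt signals from the central vein keep this zone, through beta-catenin. Of 34 genes of that pathway 4 were 2-fold lower and 1 higher (median -0.12, 0.08 as deposited). The beta-catenin targets Notum and Axin2 were at -1.54 and -0.29, Lgr5 at 83.5 in wild-type liver and 41.6 in the tumour, Rnf43 at -0.87 and Nkd1 at -0.09, and beta-catenin itself, Ctnnb1, at 0.04. Notum was at 181 and 174 in wild-type liver, 173 in transgenic liver at 5 months and 59.8 in the tumour, which was the low array. Of periportal genes Etnppl was at -1.43, Cyp2f2 at -1.66 and Hal at -0.66, while Hsd17b6 was at 0.48 and Cdh1, E-cadherin, at 1.35.

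**Figure D3:**
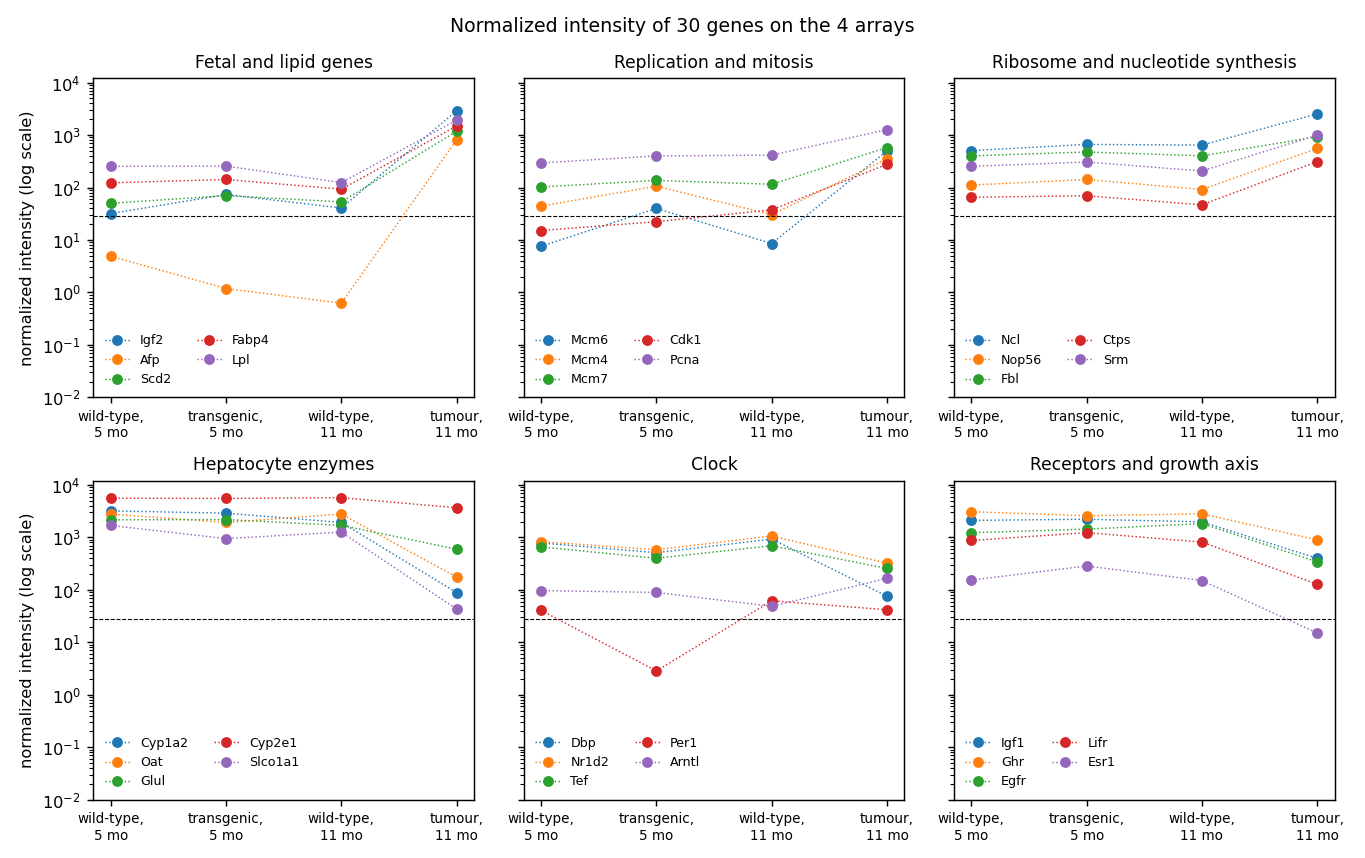
Normalized intensity (y axis, log scale) of 30 genes on the 4 arrays (x axis), 1 array a group and 1 point an array; the dashed line is the floor of 28.3, and dotted lines only join points of a gene. In the upper panels the tumour is the highest array for each gene, as for Ncl at 2528, and among the hepatocyte enzymes it is the lowest, as for Cyp1a2 at 88.6.

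Of 43 transcription factor genes of hepatocytes 10 were 2-fold lower and 1 higher, and 35 lay below 0, with a median of -0.50 that was 0.08 as deposited. Esr1, the estrogen receptor, was at 154 and 151 in wild-type liver, 285 in transgenic liver at 5 months and 15.1 in the tumour, at least 5.33-fold lower. Bcl6, a repressor of female-biased genes in male liver, was at 284, 248, 35.2 and 48.6, so that it was low on both transgenic arrays. The transgenic array at 5 months also had 11 of 16 female-biased genes 2-fold higher. Whether the sex of the mice had a part in its Bcl6 value was not tested. The aryl hydrocarbon receptor gene Ahr, which drives Cyp1a2, was at -1.95, Rxra, the common partner of nuclear receptors, at -1.30, and the pioneer factors Foxa1, Foxa3 and Foxa2 at -1.30, -1.16 and -0.34. Hnf4a, which maintains hepatocyte identity, was at -0.94, with other probe sets between -1.07 and -0.23. Cebpa was at -0.74, Nr1h4, the bile acid receptor, at -0.83, Prox1 at -0.76 and Nr1i2 at 0.26.

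Of 45 acute phase, complement and coagulation genes 13 were 2-fold lower and 2 higher, with 39 below 0 and a median of -0.69. The complement genes Mbl1, C8a and C6 were at -3.48, -3.32 and -3.06, and the coagulation factors F5, F9 and F11 at -2.21, -1.46 and -1.13, while the fibrinogen genes Fga, Fgb and Fgg were at 0.07, -0.06 and -0.13. Saa2, a serum amyloid of hepatocytes, was at 276 and 2617 in wild-type liver and 102 and 279 in transgenic liver at 5 months and the tumour, so the wild-type array at 11 months was the high one. Against that direction Saa3 and Lcn2, acute phase genes also made outside hepatocytes, were at 1.84 and 2.60. Lcn2 was at 102, 136, 38.3 and 826 in the same order. Of 26 other secreted proteins 8 were lower and 0 higher (median -0.42): Serpina12 at -4.24, the urinary pheromone carriers Mup10, Mup5 and Mup3 at -4.22, -2.87 and -2.34, Serpina7 at -2.09 and Serping1 at -1.41, beside Alb, Ttr, Ahsg and Serpina1c at -0.12, -0.19, -0.05 and -0.11. Probes for the Mup genes cross-match, and their split is uncertain. Alb, Ttr and Fgb stood toward the top of the scale, where compression of differences was not tested.

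The growth hormone and IGF axis differed at its ends. Igf1, the circulating growth factor of adult liver, was at 2108 and 1976 in wild-type liver, 2218 in transgenic liver at 5 months and 398 in the tumour, 4.96-fold lower, with 3 other probe sets also 2-fold lower. The growth hormone receptor gene Ghr was at 3093, 2819.6, 2589 and 897, and Igfals, which carries IGFs in plasma, at -1.53. Igfbp3, the main IGF binding protein, was higher, at 39 in wild-type liver and 192 in the tumour, and the type 1 IGF receptor gene Igf1r was at a bound of 0.67. Stat5a and Stat5b, which carry the growth hormone signal, were at 0.95 and 0.55, and Socs2 and Cish, their usual targets, at -0.65 and 0.33. Of 36 other growth factor and receptor genes 8 were 2-fold lower and 0 higher (median -0.22, 0.12 as deposited). Egfr was at 1229 and 1834 in wild-type liver, 1437 in transgenic liver at 5 months and 341 in the tumour, and Lifr at 875, 814, 1232 and 128. In both genes the tumour was the low array. Fgf1, Hgfac, Vegfa and Erbb3 were at -2.17, -1.45, -1.21 and -1.03, Met, the receptor of hepatocyte growth factor, at -0.42, and Erbb2 and Hgf were below the floor on both arrays.

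In the circadian clock CLOCK and the product of Arntl bind E-boxes before Per, Cry, Nr1d and Dbp genes, and the NR1D repressors hold Arntl down. Of 19 clock genes 9 were 2-fold lower in the tumour and 1 higher (median -0.99). Dbp was at 786 and 928 in wild-type liver, 511 in transgenic liver at 5 months and 75.8 in the tumour, 12.2-fold lower. Nr1d2 was at 832, 1062, 583 and 323, and Nr1d1 at 104, 102, 102 and 46.8. The tumour was the lowest array for each. Cry2, Per3 and Per2 had bounds of -1.92, -1.53 and -1.28, Tef was at -1.43, Usp2 at -1.52, Bhlhe40 at -1.52, Per1 at -0.57 and Cry1 at 0.18. Arntl was high, at 97, 48.6, 89.3 and 166 in the same order, although its ratio used the lower of the wild-type arrays and its other measured probe set had the opposite sign; Clock was at 0.62. With the floor at the 75th percentile 5 clock genes were 2-fold lower, and as deposited 4. The hour of collection was not stated, and its part in these differences was not tested.

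Windows before Per1 and Tef are shown because they hold the letters of the E-box, CACGTG, on both strands at once, in capitals. They are from RefSeq, build GRCm38.p6, Per1 at chr11:69098699-69098948 and Tef at chr15:81802423-81802672, both on the plus strand.
Per1: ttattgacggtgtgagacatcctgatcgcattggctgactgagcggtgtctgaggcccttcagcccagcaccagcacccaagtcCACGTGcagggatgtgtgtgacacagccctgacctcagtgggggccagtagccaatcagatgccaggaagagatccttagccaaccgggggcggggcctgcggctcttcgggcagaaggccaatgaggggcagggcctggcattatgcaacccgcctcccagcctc
Tef: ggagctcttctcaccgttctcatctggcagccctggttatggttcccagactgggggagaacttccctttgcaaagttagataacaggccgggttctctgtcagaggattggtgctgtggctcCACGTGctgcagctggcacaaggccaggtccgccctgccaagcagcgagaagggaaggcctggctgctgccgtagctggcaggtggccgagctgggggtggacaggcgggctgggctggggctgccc
Per1 and Tef held CACGTG once each. Of 17 clock genes with a window 5 held it (29.4%), against 7.56% of all genes. Of these genes Tef was 2-fold lower and Per1 was not.

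Iron genes were split between uptake and its hormone. Tfrc, the transferrin receptor, was at 261 and 195 in wild-type liver, 463 in transgenic liver at 5 months and 1411 in the tumour, 7.24-fold higher. Hamp, which encodes the iron hormone hepcidin, was at 5211, 5677, 5387 and 1382, 4.11-fold lower, and Tfr2, an iron sensor upstream of it, was at -1.30. Id1 and Smad7, which the same BMP signal induces, were at -1.18 and -1.37, and Bmp2 had a bound of -2.12. Alas2, the heme enzyme of red cell precursors, was at -2.64, Alas1 at -0.96 and the ferritin gene Fth1 at -0.16. Over the 24 iron and metal genes the median was -0.22, or 0.15 as deposited, with 3 higher and 4 lower.

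Of 16 genes higher in male than in female liver 12 were 2-fold lower and 0 higher (median -2.48), among them Hsd3b5, a steroid dehydrogenase, at least 34.5-fold lower (974 against 3.57), Elovl3, Cyp4a12a at -2.57 and Nudt7 at -2.34. Of 16 female-biased genes 1 was 2-fold higher, Cyp17a1 at 1.83, and 2 were lower, Acot3 at -2.34 and Cyp2b9 at -2.28. Among Y-linked genes, Eif2s3y and Uty stood at -1.11 and -1.36 and Kdm5d at 0.31, and Xist, of the inactive X chromosome, was at -0.37. Eif2s3y was at 331 and 288 in wild-type liver, 292 in transgenic liver at 5 months and 133 in the tumour. The transgenic array at 5 months had Xist at 223 against 63.2 in wild-type liver, with another probe set at 370 against 2.58, and 11 of 16 female-biased genes 2-fold higher. At 11 months the first of these Xist probe sets was at 71.0 in wild-type liver and 54.9 in the tumour. The other was at 1.69 and 4.10, below the floor on both arrays. Whether the share of male mice differed between these arrays was not tested.

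Genes of actin and tubulin turnover were among the higher ones. Of 45 genes of the cytoskeleton 17 were 2-fold higher and 1 lower (median 0.56), or 8 higher without probe sets that match several transcripts. Besides Gsn, the tubulins Tubb6 and Tubb2a were at a bound of 2.80 and at 2.01, Stmn1, which takes microtubules apart, at 2.40, Anxa1 at 2.24, Tmsb10, which holds actin monomers, at 1.82 and Actg1 at 1.70. Without probe sets that match several transcripts Tubb2a was at 0.25 and Tmsb10 at 0. Krt8 was at 929 and 723 in wild-type liver, 1185 in transgenic liver at 5 months and 2288 in the tumour, and its partner of hepatocytes, Krt18, at 990.0, 885, 1226 and 2656. Krt7 and Krt19, keratins of bile duct cells, were below the floor on both arrays. At cell junctions Gjb2, the gap junction protein connexin 26, was at -2.27 and the pericentral tight junction gene Cldn2 at -2.02, while Cdh1 and Cd9 were at 1.35 and 1.13. Of 40 matrix genes 8 were higher and 1 lower: Col3a1 at 2.89, the basement membrane collagens Col4a1 and Col4a2 at 2.76 and 1.46, Sparc at 1.32, Mmp12, Mmp13, Col1a1 and Col5a2 with bounds of 2.60, 1.19, 1.27 and 1.26, and the proteoglycan Dcn at -1.27.

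Markers of the cells that line and support the liver plate differed by subtype. All 10 markers of sinusoidal endothelium lay below 0, 5 of them 2-fold lower (median -0.85). Clec4g, a lectin of these cells, was at 473 and 539 in wild-type liver, 503 in transgenic liver at 5 months and 76.4 in the tumour, 7.05-fold lower, whereas Stab1, Stab2 and Lyve1 were at -0.41, -0.53 and -0.19. Of 10 markers of other endothelium 2 were 2-fold higher, Esm1, of sprouting tip cells, with a bound of 2.67 and Cd34, a marker of capillarised vessels, with one of 1.24, while Pecam1 and Cdh5, shared by all endothelium, were at 0.54 and 0.20. Of 10 markers of quiescent stellate cells 4 were lower and 0 higher, with the retinol esterase gene Lrat at a bound of -2.17, Ecm1 at -2.18, Reln at -1.51 and Colec11 at -1.14. Of 12 markers of activated stellate cells and fibroblasts 4 were higher, Col3a1, Col1a1, Pdgfrb at 1.42 and Acta2 at 1.23, and 1 was lower. Each of these 4 came under 2-fold by some alternative: without probe sets that match several transcripts Col3a1 was at 0.61 and Pdgfrb and Acta2 at 0, and Col1a1 was at 0 with the floor at the 75th percentile. Under both settings the median of the list was 0, in place of 0.31.

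Macrophage markers parted in the same way. Of 11 Kupffer cell markers 4 were 2-fold lower and 0 higher: Clec4f, which is found on Kupffer cells alone, was at 310.2 and 349 in wild-type liver, 349 in transgenic liver at 5 months and 51.9 in the tumour, Vsig4 was at -1.86, Fcna at -1.29 and Marco at a bound of -1.42. The list's median was -0.27, and 0.29 as deposited, and C1qa, C1qb and C1qc, shared by most macrophages, were at 0.62, 0.61 and 0.29. Of 10 markers of macrophages derived from monocytes 5 were higher and 0 lower: Gpnmb and Mmp12 were below the floor on the other 3 arrays and at 219.8 and 171 in the tumour, Lgals3 was at 2.92, Cd9 at 1.13 and Cd68 at 1.03. Ccr2 and Chil3, of fresh monocytes, were below the floor on both arrays. Of the 10 markers 3 were above the floor in wild-type liver and 8 in the tumour, so most could not have had a ratio below 0. Gpnmb, Lgals3, Cd9 and Cd68 are not made by macrophages alone. The MHC class II genes H2-Aa and Cd74 were at 1.23 and 1.15 (0.62 and 0.61 with the 5-month wild-type control), the median of the class II list was 0.92, or 0 without probe sets that match several transcripts. The class I genes H2-K1, B2m and Psmb9 were at -0.73, -0.48 and -0.97, 0 of 11 called (median -0.48, 0.03 as deposited). Most T cell genes were at the limit of detection, with 6 of 8, Cd3d, Cd3e and Cd3g among them, below the floor on both arrays. Cd8a was above it, at 84.5 in wild-type liver and 82.9 in the tumour. Of 38 chemokine, cytokine and checkpoint genes 1 was higher, Ccl5 with a bound of 1.76, and 4 were lower, Cxcl12 at -1.45 first. Pancreatic acinar genes, high on the transgenic array at 5 months (8 of 10), had 0 calls here.

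**Figure D4:**
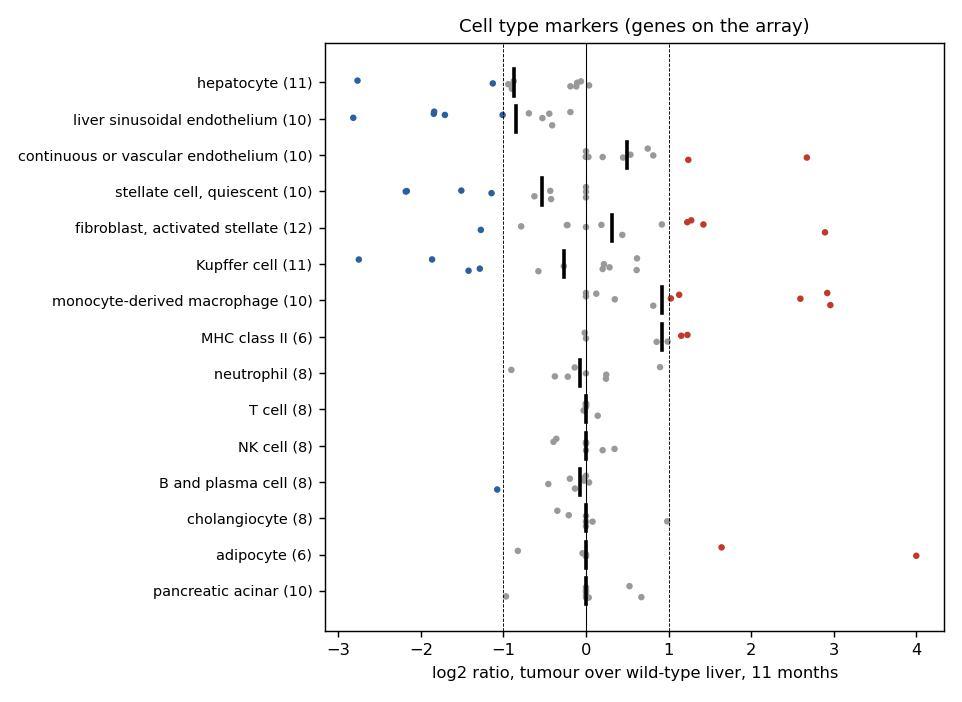
Log2 ratio of tumour over wild-type liver at 11 months (x axis) for markers (points) of 15 cell types, with the number on the array in brackets, black bars at the median and dashed lines at 2-fold. Sinusoidal endothelium has all points below 0, with a median of -0.85. Markers of monocyte-derived macrophages have none below 0 and a median of 0.92. Of these 10 markers 3 were above the floor in wild-type liver, so the rest could not lie below 0.

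Of 41 targets of Hippo, Notch, Hedgehog and TGF-beta signals 6 were lower and 1 higher, Birc5, with Id3 at -2.10, Hes6 at -1.50, Ccn1, a YAP target, at -0.64 and Hes1, a Notch target, at -0.17. Of 21 immediate early genes 3 were higher and 3 lower, with Klf6 and Atf3 at 1.38 and 1.42 and Dusp1 and Junb at -1.78 and -1.30. Of 31 interferon response genes 1 was higher, Usp18 at 1.42, and 4 were lower, Irf9 and Irf7 at -1.36 and -1.24. Of 22 genes of the NRF2 response and redox balance 2 were higher, Gpx7 and Gpx3 at 2.06 and 1.99, while Nqo1 and Gclc, classic NRF2 targets, were at 0.12 and -0.65. Among chromatin genes 7 of 29 were higher and 0 lower, with Uhrf1 at a bound of 1.74, Ruvbl1 at 1.48, Ezh2 at 1.09 and Dnmt1 at 0.65.

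Few of these differences were present at 5 months, in a comparison that shared no array with this one. There 187 genes were 2-fold higher (1.03% of all genes on the array) and 171 lower (0.94%). Of the 1072 genes higher in the tumour 48 were also higher at 5 months and 20 were lower, and their median ratio at 5 months was 0.09. Of the 841 lower genes 32 were also lower and 13 higher, with a median of -0.10. Mcm4, Mcm2 and Ccnd1 were among the genes higher at both ages, at 5-month ratios of 1.26, 1.15 and 2.59. Bcl6 was lower at both, at -3.01 and -2.35, although female-biased genes were high on the transgenic array at 5 months. The lists of mitosis and of snoRNP genes had medians at 5 months of 0.00 and 0.23. Between the wild-type arrays 593 genes (3.26%) were 2-fold apart at 11 over 5 months. With the 5-month wild-type array as the control, Akr1d1, Btg2, Cdh1, Cyp2b9, Fen1, Idi1 and Saa2 changed sign, so these 2-fold calls rested on the wild-type array at 11 months. Another 45 named genes came under 2-fold. Some did so only just, as Cd68 at 0.999 in place of 1.03 and Rbl2 at -0.97, and others by more, as Bad at 0.28. Without probe sets that match several transcripts Arntl, Colec11, Idh2, Idh3a, Incenp, Meg3 and Top2a changed sign.

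The shares of genes that were 2-fold apart differed by chromosome, a property that did not enter the choice of genes. Over all genes with a ratio 8.30% were higher and 6.51% lower. Of 510 genes on chromosome 15, 85 were 2-fold higher (16.7%) and 19 lower (3.73%), with a median ratio of 0.16, and of 427 on chromosome 16, 60 were higher (14.1%) and 25 lower (5.85%). Chromosomes 14 and X leaned the other way: 18 of 460 genes on chromosome 14 were higher (3.91%) and 56 lower (12.2%), with a median of -0.25, and 13 of 393 on X were higher (3.31%) and 48 lower (12.2%), with a median of -0.21. At 5 months the medians of the 4 chromosomes lay between -0.02 and -0.01, and between the wild-type arrays between -0.003 and 0.02. The genes of chromosome 15 with the largest ratios were Fkbp11, the centromere gene Cenpm at 2.50, Nol12, of the nucleolus, at 2.45, 9030619P08Rik at 2.30, Ndrg1 at 2.29 and Tarbp2, of microRNA processing, at 2.14. On chromosome 16 they were Mcm4, Tfrc, Rfc4, Yars2 at 2.25, Ppl at 2.17 and Lztr1 at 2.15. On chromosome 14 the lowest were Mbl1, Gulo, Dhrs1 at -2.38, Gjb2, Itih1 at -2.25 and Abhd6 at -1.88, and on X Alas2, Serpina7, Cldn2, C1galt1c1 at -1.94, Nxt2 at -1.88 and Vsig4. In a check added after the data were seen, medians were taken relative to the median of all genes with a ratio. The 4 chromosomes kept their sign under each of 8 other ways of processing. Chromosome 15 lay between 0.09 and 0.22 above the median of all genes and chromosome 14 between 0.13 and 0.30 below. The 4 were picked from these same ratios and every way used the same tumour array, so the check was not independent of the choice.

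**Figure D5:**
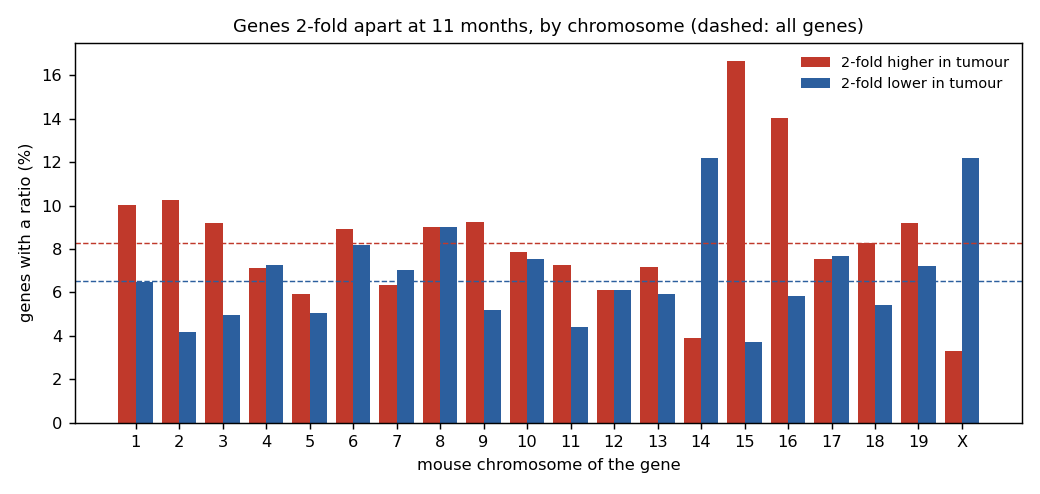
Share of genes with a ratio (y axis, percent) that were 2-fold higher (red) or lower (blue) in the tumour than in wild-type liver at 11 months, by mouse chromosome (x axis); dashed lines give the shares over all genes, 8.30% and 6.51%. Chromosomes 15 and 16 have the tallest red bars, 16.7% and 14.1%, and chromosomes 14 and X the tallest blue bars.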

How the data were processed

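The deposited series table held 1 column of intensity values, linear and without stated background correction, summarisation or scaling, for each of 4 arrays of 45101 probe sets; how the authors made these intensities is, beyond that, not given in the sources used here. Arrays were quantile normalized, intensities were floored at the median of all normalized values, and log2 ratios were taken between arrays, in Python 3.11.15 with numpy 2.4.6, pandas 2.3.3 and matplotlib 3.10.9. Of 35890 probe sets with an annotation, 34958 had 1 gene symbol and were used, 932 had several and were not, and 9211 were unlisted. Where a gene had several such probe sets, the brightest on average over the arrays stood for it. The ratio step was tested on simulated data. Each array stood for 5 mice and there was 1 array a group, which limits the precision, so no test was made. Alternatives were 2 other scalings, 3 other treatments of low values, 2 other choices of probe set and the younger wild-type control.

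Named genes were the 25 highest and 25 lowest ratios, the 10 highest and lowest bounds, leading and defining members of 61 gene lists and 19 cell marker lists, both genes of isoform pairs, and Myc. Further genes, the leading ones of a chromosome among them, were chosen after their values were seen. The members and lists were chosen with earlier results of these data known. Counts cover all members on the array, and a gene under the floor in tumour and control alike enters a median at 0.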

Additional observations from a re-analysis of the deposited data

Results flagged for a closer look

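The genes of this paragraph differed by 2-fold in opposite directions at the 2 ages, with 1 ratio an age. The difference between ages was not tested, and 1 array a group allows no test. Acute phase and mucosal genes were higher in the tumour and lower in transgenic liver at 5 months: Lcn2 at 2.60 and -1.41, Saa3 at 1.84 and -1.03, and Tff3 at 2.79 and -1.30. The early response genes Atf3 and Btg2 were at 1.42 and 1.01 in the tumour and at -1.85 and -1.25 at 5 months. With the 5-month wild-type array as the control of the tumour, Atf3 was at 0.18 and Btg2 at -0.17, so that these opposite directions rested on the difference between the wild-type arrays. Acot3, an acyl-CoA thioesterase, and Cyp2b9, a P450 of female liver, were at -2.34 and -2.28 in the tumour and at 2.25 and 3.70 at 5 months. For both, the wild-type array at 11 months was well above that at 5 months, at 516 against 119.7 for Acot3 and 143.7 against 23.7 for Cyp2b9. The transgenic array at 5 months also had Xist at 222.9 against 63.2 in wild-type liver, and 11 of 16 female-biased genes 2-fold higher; their part in these values was not tested. Id3, a target of BMP signals, was at -2.10 in the tumour and at 1.02 at 5 months.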

How the results depend on the processing

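The number of genes 2-fold higher in the tumour was 1072, and 3062 as deposited, 1902 under a floor at the 25th percentile, 574 under one at the 75th, and 703 where probe sets of a gene were averaged. The number lower was 841, and 244, 1677 and 491 under the first 3 of these. As deposited, 29 snoRNP and rRNA processing genes were higher in place of 17, and P450 genes lower numbered 13 in place of 20, hepatocyte transcription factors 4 in place of 10, acute phase and complement genes 7 in place of 13 and clock genes 4 in place of 9. Under the floor at the 75th percentile counts were 13 for mitosis, 7 for pyrimidine synthesis, 5 for the clock and 3 for sinusoidal endothelium, which was also 3 where probe sets were averaged; under the floor at the 25th percentile 8 markers of monocyte-derived macrophages were higher. Without probe sets that match several transcripts 12 mitotic and 8 cytoskeletal genes were higher. A higher floor and fewer probe sets leave fewer genes that can be called; the cause of the other shifts was not tested.

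Of 335 named genes at 2-fold, 177 stayed at 2-fold in the same direction under each of the 8 alternatives that gave them a value. Without probe sets that match several transcripts some named genes had no value: 255 stayed, 26 came under 2-fold and 7 changed sign. The number that came under 2-fold was 5 to 65 by alternative, most with the higher floor and fewest with the lower one. In all, 15 ratios changed sign. With the younger wild-type array as the control, the ratio was -0.032 for Akr1d1, -0.17 for Btg2, -0.078 for Cdh1, 0.063 for Cyp2b9, -0.52 for Fen1, -0.27 for Idi1 and 0.017 for Saa2. Without probe sets of several matches it was -0.25 for Arntl, 0.81 for Colec11, -0.26 for Idh2, -0.42 for Idh3a, -0.89 for Incenp (also with the floor at the 25th percentile), -0.15 for Meg3 and -0.063 for Top2a. No replicate could be left out with 1 array a group. No paired analysis was possible because each group had 1 array. Genes near the floor are limited by their signal over background.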

Other observations

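Carriers and enzymes outside the groups above were divided as well. Of 20 amino acid transporters 3 were 2-fold higher in the tumour than in wild-type liver at 11 months and 4 lower: the large neutral transporter Slc43a1 had a bound of 2.26, the arginine transporter Slc7a1 was at 1.47 and the glutamine transporter Slc1a5 had a bound of 1.34, while the hepatocyte forms Slc7a2, Slc38a3 and Slc6a9 were at -1.37, -1.20 and -1.02. Of 20 apolipoprotein and lipoprotein genes 1 was higher and 3 were lower (median -0.39). In the pentose phosphate pathway Pgd was at 1.45 and H6pd, its counterpart in the endoplasmic reticulum, at -1.32. Neutrophil, dendritic cell and NK cell markers had 0 calls each, of 8, 7 and 8 genes on the array. A ratio was there for 7, 4 and 4 of them. Over all genes 5.89% were higher and 4.62% lower, so 0 calls among so few genes says little about these cells. The plasma cell gene Jchain was at -1.07 and the bile duct marker Anxa4 at 0.98.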
